A study of Mus musculus with 24 samples.

Results

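Blood B cells were set against cardiac Ccr2lo macrophages, the heart macrophages with low Ccr2, in 3 recipient mice, which gave 6 of the 24 samples of the series. The samples were chosen by population and were paired by the mouse number in their titles. The comparison asks whether the overlap of both populations comes from shared founders at matching levels or from an even spread of reads. Ccr2 is a chemokine receptor that monocytes need to enter the blood from the marrow. Haematopoietic stem cells of C57BL/6 marrow had been cultured, infected with the barcoding lentivirus pBC008 5 days after plating, and sorted 4 days later as GFP+ cells lacking lineage markers and carrying Sca1 and cKit. Male CD45.2 recipients aged 5 weeks were irradiated with 9 Gy and received these cells together with CD45.2+ rescue cells that carried cKit but not Sca1. Tissues were collected 2 months after transplantation, and all 8 sorted populations of a mouse shared this history. The transplanted stem cells had spent days in culture, and neither the rescue cells nor macrophages that survived in the host carried a barcode. The reads therefore come from barcoded descendants alone. Gene expression was not analysed here, so the cell types were taken from the labels and were not checked against markers.

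A lentiviral barcode is a short synthetic sequence that the virus inserts into the genome of a stem cell and that all descendants of that cell inherit. B cells arise from stem cells through lymphoid progenitors in the bone marrow. Heart macrophages with low Ccr2 are known as a largely self-maintained population of the tissue, which circulating monocytes can refill after irradiation. Barcodes held in common by the 2 populations mark descent from the same infected cells, which can carry more than 1 barcode each. An infected cell could divide in the 4 days before sorting, so sister cells with the same barcode may have been transplanted. The shares of reads show how much of each population's barcode DNA carried each barcode. The barcodes are synthetic and have no position in a genome, and their sites of integration were not analysed here.

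The files held read counts for sequences of 52 bases. The 6 samples had 10279704 to 13751924 reads, so that a barcode without reads could still have held up to 2.18e-05% to 2.92e-05%, depending on the sample. Intervals and limits cover counting error only, since reads came from PCR without molecular identifiers. The share of a barcode is its count over the total of its sample. Shares at this depth had 95% Wilson intervals of at most 0.0202 percentage points to either side for the barcodes named here. Of 769 barcodes that reached 0.1% in B cells or Ccr2lo macrophages of any mouse, 12 did so in more than 1 mouse. A single barcode therefore had no replicate across mice, and single barcodes were compared by fold within a mouse, with no test.

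The barcodes on which the comparison turned most are shown first. In each mouse the letters A to C mark the 3 barcodes that added most to the overlap, that is, those with the largest smaller share of the pair. Letters D and E mark the strongest leaning to B cells and F and G the strongest leaning to Ccr2lo macrophages, among barcodes with a mean share of at least 0.1% over the pair. Most barcodes of the library alternate between G or C and A or T, and capitals mark bases off that pattern, which 4 of these 21 barcodes had. The barcodes of mouse 1 were these.
Barcode 1A: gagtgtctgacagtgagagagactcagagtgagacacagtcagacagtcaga
Barcode 1B: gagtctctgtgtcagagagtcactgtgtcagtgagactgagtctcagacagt
Barcode 1C: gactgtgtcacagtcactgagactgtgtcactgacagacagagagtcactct
Barcode 1D: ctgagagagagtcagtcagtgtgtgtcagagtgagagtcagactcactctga
Barcode 1E: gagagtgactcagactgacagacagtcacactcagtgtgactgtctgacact
Barcode 1F: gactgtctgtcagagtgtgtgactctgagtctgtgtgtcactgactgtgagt
Barcode 1G: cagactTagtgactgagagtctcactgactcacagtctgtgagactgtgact

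The barcodes of mouse 2 were chosen in the same way, and 2A, the leading barcode of its Ccr2lo macrophages, had a base off the pattern.
Barcode 2A: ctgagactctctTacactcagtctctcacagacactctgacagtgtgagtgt
Barcode 2B: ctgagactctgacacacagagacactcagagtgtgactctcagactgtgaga
Barcode 2C: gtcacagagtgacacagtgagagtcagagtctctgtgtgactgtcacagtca
Barcode 2D: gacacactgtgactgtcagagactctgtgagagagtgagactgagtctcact
Barcode 2E: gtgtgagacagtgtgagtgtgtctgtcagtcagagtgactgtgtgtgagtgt
Barcode 2F: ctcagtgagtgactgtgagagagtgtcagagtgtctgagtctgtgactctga
Barcode 2G: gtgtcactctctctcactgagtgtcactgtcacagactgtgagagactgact

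The barcodes of mouse 3 followed the same order, with 2 of 7 off the pattern.
Barcode 3A: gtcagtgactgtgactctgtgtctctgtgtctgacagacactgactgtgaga
Barcode 3B: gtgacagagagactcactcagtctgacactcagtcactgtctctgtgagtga
Barcode 3C: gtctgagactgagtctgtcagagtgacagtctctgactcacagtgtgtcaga
Barcode 3D: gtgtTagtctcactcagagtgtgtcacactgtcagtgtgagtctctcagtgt
Barcode 3E: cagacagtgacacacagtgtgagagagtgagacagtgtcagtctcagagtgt
Barcode 3F: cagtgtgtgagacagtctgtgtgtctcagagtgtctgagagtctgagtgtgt
Barcode 3G: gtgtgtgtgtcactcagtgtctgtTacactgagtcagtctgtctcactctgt

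B cells and Ccr2lo macrophages of the same mouse shared many barcodes. Their overlap, for which the smaller share of the pair is added up across all barcodes (0 for separate, 1 for identical repertoires), was 0.376 in mouse 1, 0.404 in mouse 2 and 0.396 in mouse 3. The 3 values lay close together, at 0.392 ± 0.0144 (SD, n = 3). B cells of one mouse and Ccr2lo macrophages of another overlapped by only 0.0128 to 0.0242 in the 6 such pairs. The pair had been chosen with its high overlap known, so these values are a description. Other blood cells overlapped less with the same macrophages: monocytes by 0.226, 0.344 and 0.169 in mice 1, 2 and 3, neutrophils by 0.178, 0.325 and 0.159, and T cells by 0.215, 0.305 and 0.195. B cells were the highest of the 4 in each mouse. Seen from the B cells, the overlap with Ccr2lo macrophages did not stand apart. B cells overlapped with Ccr2hi macrophages by 0.4004, 0.422 and 0.464, with renal M2 macrophages by 0.398, 0.414 and 0.394, and with blood monocytes by 0.395, 0.408 and 0.338. Each of these 3 populations lay above Ccr2lo macrophages in mice 1 and 2, and Ccr2hi macrophages also in mouse 3.

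The spread of reads differed between the populations and sets a ceiling on the overlap. The numbers of sorted cells are not given in the labels, so the part that sampling of few cells has in this spread was not tested. The effective number, which is e raised to the entropy of the shares and counts barcodes as if all were equally abundant, was 146, 91.9 and 95.9 in B cells and 889, 419 and 554 in Ccr2lo macrophages of mice 1, 2 and 3. In monocytes it was only 42.4, 30.9 and 23.0. The ceiling was taken as the overlap that would result if the barcodes of each rank were the same in both samples. For B cells with Ccr2lo macrophages this rank-matched maximum was 0.586, 0.658 and 0.649. For monocytes it was 0.342, 0.418 and 0.355, for neutrophils 0.287, 0.4003 and 0.342, and for T cells 0.392, 0.526 and 0.353. B cells had the highest ceiling in every mouse.

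Measured against that ceiling, B cells did not stand above the other blood cells. The overlap was 0.642, 0.614 and 0.611 of its maximum in B cells, a mean of 0.622 ± 0.0170 (SD, n = 3). It was 0.661, 0.823 and 0.474 in monocytes, 0.620, 0.811 and 0.466 in neutrophils and 0.548, 0.581 and 0.554 in T cells, a mean of 0.615 ± 0.130 over the 9 samples (SD). The difference of 0.00652 did not pass the threshold (two-sided exact permutation test of 3 against 9 samples, p = 0.941, Benjamini-Hochberg adjusted over 5 tests 0.941). Its sign turned without mouse 1 (-0.00609) and without mouse 3 (-0.0464). The wide spread came from the myeloid cells, which lay above B cells in mouse 2 and below them in mouse 3. T cells lay below B cells in each mouse. Over the 9 comparisons of B cells with another blood population of the same mouse, the overlap of B cells was 1.17 to 2.48 times as high, with a geometric mean of 1.73. The ceiling was 1.25 to 2.04 times as high, with a geometric mean of 1.68. The remaining factor, the overlap relative to the ceiling, was 0.745 to 1.31 with a geometric mean of 1.03 and exceeded 1 in 6 of the 9 comparisons. The 9 comparisons share the 3 Ccr2lo samples and the 3 B cell samples, and they are not independent. With the 10 leading barcodes of each sample removed, the overlap was 0.362 and its ratio to the ceiling 0.575 in B cells against 0.512 in the other blood cells (exact permutation p = 0.0773, adjusted p = 0.0966).

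**Figure D1:**
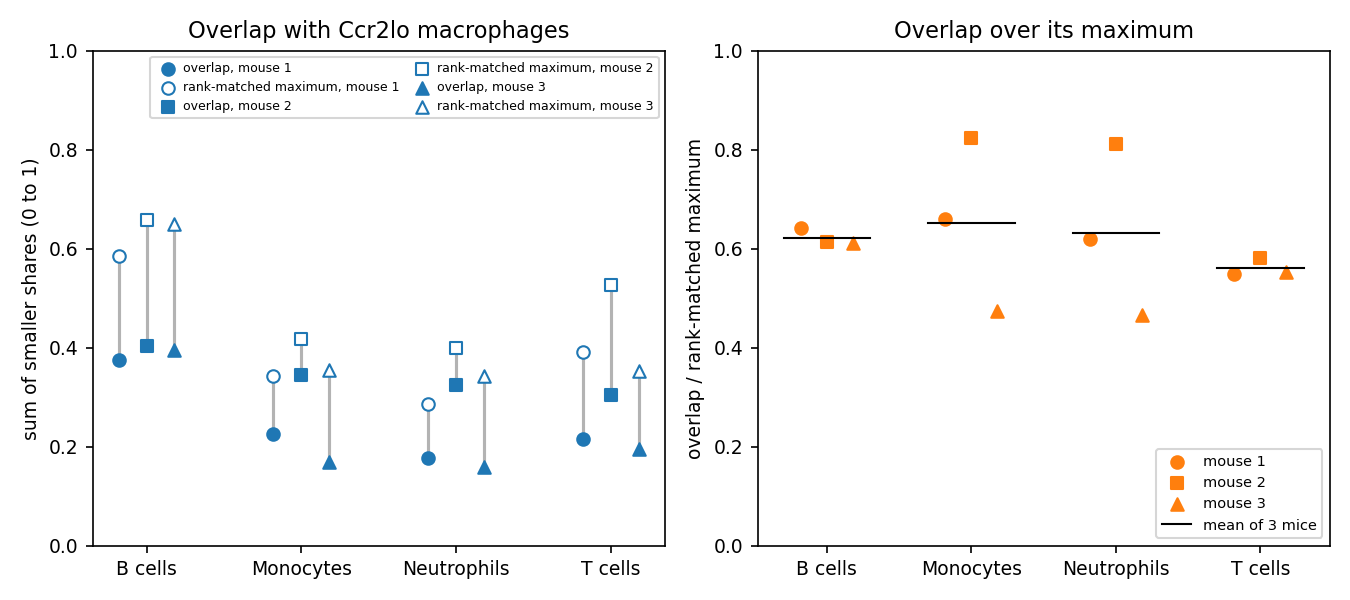
Left, overlap with Ccr2lo macrophages of the same mouse (filled) and its rank-matched maximum (open) for the 4 blood populations, on a scale from 0 to 1, with 1 symbol per mouse and a line joining both values. Right, the ratio of both, with a line at the mean of 3 mice; B cells have the highest overlap and the highest maximum, while their ratios of 0.611 to 0.642 lie inside the range of the monocytes.

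At 4-fold, more barcodes differed in level between B cells and Ccr2lo macrophages than matched, a balance that turned with other cuts. Barcodes with at least 0.1% of reads in either sample were counted, 296, 225 and 263 in mice 1, 2 and 3, and a fold was taken between shares with 0.01% added to each. Within 4-fold lay 129 barcodes in mouse 1 (43.6%), 87 in mouse 2 (38.7%) and 108 in mouse 3 (41.1%). Over 4-fold higher in B cells were 51 (17.2%), 40 (17.8%) and 39 (14.8%). Over 4-fold higher in Ccr2lo macrophages were 116 (39.2%), 98 (43.6%) and 116 (44.1%). The nearest barcodes on both sides of the limit had folds of 3.97 and 4.02 in mouse 1, 3.90 and 4.01 in mouse 2 and 3.94 and 4.001 in mouse 3. The mean share of matching barcodes over the 3 mice was 41.1%, but 22.2% at 2-fold, 63.1% at 8-fold, 62.2% when barcodes at 0.01% in either sample were counted and 90.2% with 0.1% added to each share. The median fold over the barcodes at 0.1%, in either direction, was 2.20, 2.54 and 2.27 on the log2 scale. Ccr2hi and Ccr2lo macrophages of the same hearts had a median of 0.436, 0.410 and 0.476, and each B cell value lay above each of these. Among the barcodes that reached 0.01% in both B cells and Ccr2lo macrophages, 404, 257 and 307, shares correlated with a Spearman's rho of 0.439, 0.514 and 0.397. These barcodes come from 2 libraries of a mouse, and the values are given as a description. They held 94.96%, 96.3% and 95.04% of B cell reads but only 53.8%, 62.8% and 62.1% of Ccr2lo reads.

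**Figure D2:**
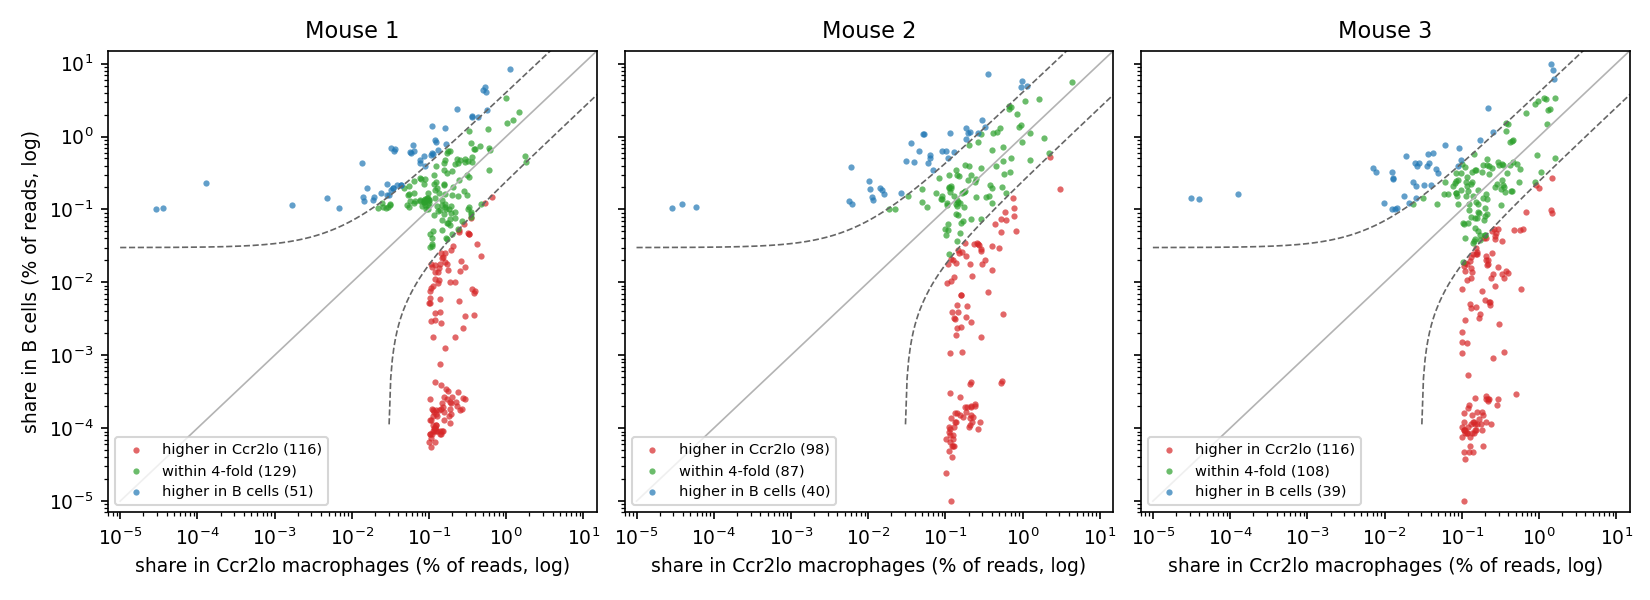
Share of reads in B cells against the share in Ccr2lo macrophages, both in percent on log axes, for each barcode with 0.1% or more in either sample, by mouse. Green points lie within 4-fold (dashed curves, with 0.01% added to both shares), blue ones are higher in B cells and red ones higher in Ccr2lo macrophages; a share under 1e-05% is drawn at that value, and the red points form a lower cloud near 0.0001% of B cell reads.

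The share of barcodes at matching levels was still higher for B cells than for other blood cells. It was 43.6%, 38.7% and 41.1% in B cells, 23.9%, 25.4% and 7.89% in monocytes, 12.03%, 20.7% and 7.02% in neutrophils, and 17.5%, 20.1% and 14.3% in T cells of mice 1, 2 and 3. The groups did not overlap, and the difference of 24.6 percentage points between B cells (41.1% ± 2.46, SD, n = 3) and the others (16.5% ± 6.65, SD, n = 9) passed the threshold. The two-sided exact permutation test gave p = 0.00455, the smallest that 3 against 9 samples allow (Benjamini-Hochberg adjusted p = 0.0114). Exact permutation within mice, as a replicate block, gave p = 0.0156, again the smallest possible (adjusted p = 0.0391). The pair was chosen with its high overlap known, and this measure uses the same shares. These tests are therefore not independent of that choice. Without mouse 1, 2 or 3 the difference was 24.0, 28.6 and 21.2 points, and the adjusted p of the exact permutation test rose to 0.0893, 0.0595 and 0.179. Ccr2lo barcodes below 0.01% in a blood population count as unmatched here, and fewer barcodes reached that level in the other blood cells. Among the barcodes with 0.1% or more in both samples, 83, 82 and 77 for B cells, 75.9%, 76.8% and 88.3% lay within 4-fold. The same share was 73.3%, 87.5% and 41.9% in monocytes, 54.8%, 76.5% and 40.7% in neutrophils and 64.8%, 62.7% and 62.5% in T cells. With barcodes at 0.01% in either sample the difference was 11.05 points and with 0.1% added to the shares 7.80 points, both past the threshold. Among barcodes at 0.1% in both samples the difference of 17.6 points no longer passed the threshold (exact permutation p = 0.0909, adjusted p = 0.227).

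Barcodes present in B cells covered more of the Ccr2lo reads than those present in other blood cells. Barcodes at 0.01% or more in B cells held 54.0%, 63.0% and 62.3% of the Ccr2lo reads in mice 1, 2 and 3. Those of monocytes held 38.2%, 53.1% and 39.8%, those of neutrophils 31.7%, 45.7% and 37.4%, and those of T cells 29.4%, 48.7% and 31.8%. Each B cell sample lay above each of the other 9, and the difference of 20.2 percentage points (59.8% ± 4.99, SD, n = 3, against 39.5% ± 8.18, SD, n = 9) passed the threshold (two-sided exact permutation p = 0.00455, adjusted p = 0.0114). Like the share within 4-fold, this measure uses the shares that make up the overlap by which the pair was chosen. The 9 other samples come from the same 3 mice as the B cells. Exact permutation within mice gave p = 0.0156, the smallest possible (adjusted p = 0.0391). Without mouse 1, 2 or 3 the difference was 19.9, 23.4 and 17.4 points (exact permutation, adjusted p = 0.0893, 0.0595 and 0.179). The number of barcodes counted differed, since B cells had 475, 296 and 366 at 0.01% or more and monocytes 229, 148 and 134. With the 100 most abundant barcodes of each blood population in place of that cut, B cells covered 27.3%, 44.7% and 38.3% of the Ccr2lo reads. Monocytes then covered 25.8%, 45.6% and 34.2%, neutrophils 25.9%, 43.8% and 35.8%, and T cells 25.9%, 43.7% and 34.2%. The difference shrank to 1.77 points and the call was lost (exact permutation p = 0.7, adjusted p = 0.875; p = 0.0312 within mice). This alternative was added after the values were seen.

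Of the 100 most abundant barcodes of B cells, 42, 54 and 51 were among the 100 most abundant of Ccr2lo macrophages in mice 1, 2 and 3. For monocytes it was 38, 55 and 45, and for neutrophils and T cells alike it was 38, 52 and 43. The values of B cells and of the other blood cells overlapped, and the difference of 4.11 barcodes did not pass the threshold (two-sided exact permutation p = 0.395, adjusted p = 0.494; within mice p = 0.0312, adjusted p = 0.0521). Ccr2hi and Ccr2lo macrophages shared 77, 80 and 84 of the 100. The Morisita-Horn index, which weights abundant barcodes, was 0.369, 0.494 and 0.444 for B cells with Ccr2lo macrophages. It was 0.241, 0.533 and 0.165 for monocytes, and the difference of B cells from the 9 other blood samples, 0.136, missed the threshold (exact permutation p = 0.186, adjusted p = 0.311). Exact permutation within mice gave p = 0.0469 (adjusted p = 0.0586). With the 10 leading barcodes of each sample removed the difference rose to 0.254 and passed the threshold (exact permutation p = 0.00455, adjusted p = 0.00758). The index too uses the shares that make up the overlap by which the pair was chosen. Monocytes of mouse 2 exceeded B cells of that mouse in the count of shared barcodes and in the index, and neutrophils of mouse 2 did so in the index (0.518). With the cosine of the 2 sets of shares in place of the index, the difference was 0.0682 (exact permutation p = 0.586, adjusted p = 0.733).

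**Figure D3:**
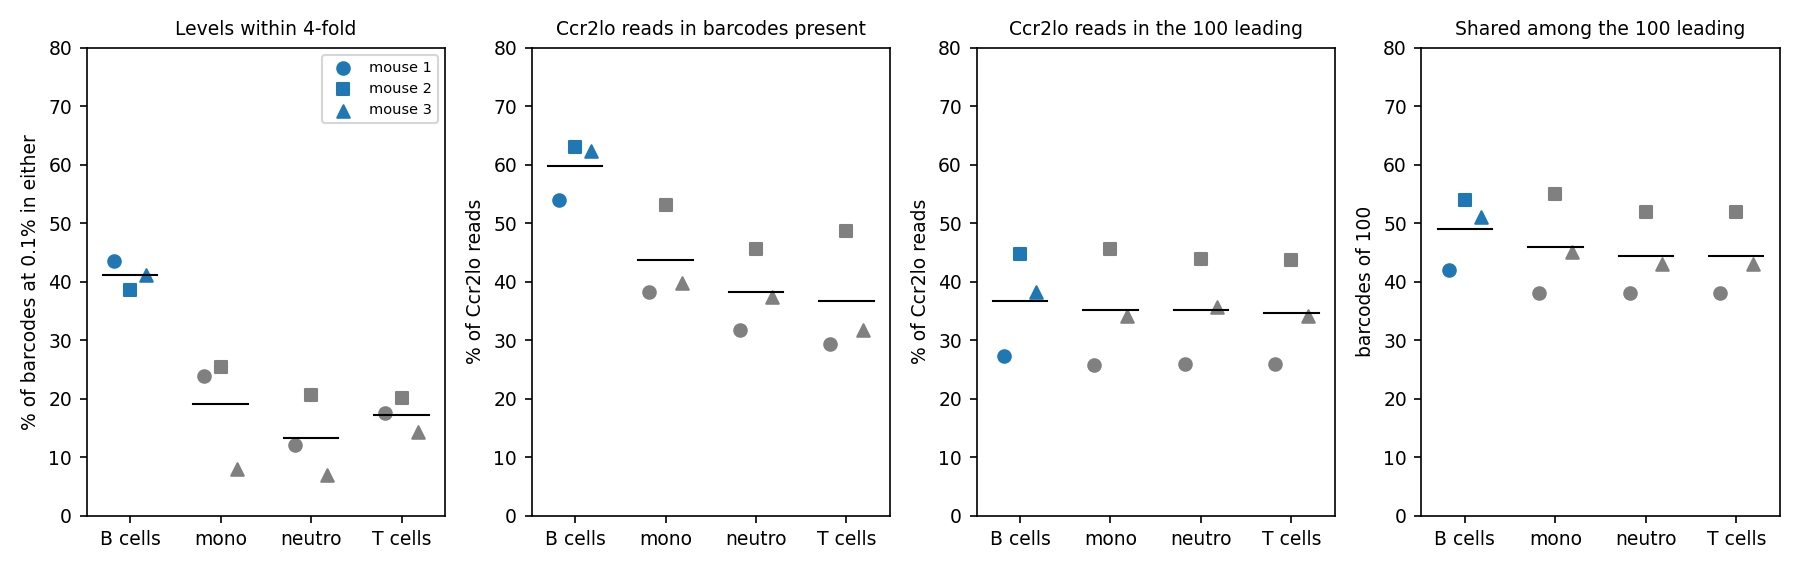
Measures of each blood population against Ccr2lo macrophages of its mouse: the percentage of barcodes within 4-fold, the percentage of Ccr2lo reads in barcodes at 0.01% or more in the blood population, the same for its 100 most abundant barcodes, and the number of shared barcodes among the 100 most abundant of both. Symbols are mice and lines are means of 3 mice; B cells lie above all other samples in the first and second panels only.

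Of the overlap of B cells with Ccr2lo macrophages, the barcodes within 4-fold gave 60.2%, 69.1% and 68.2% in mice 1, 2 and 3. Barcodes higher in B cells gave 18.4%, 15.6% and 15.5%, those higher in Ccr2lo macrophages 3.31%, 5.21% and 5.39%, and barcodes under 0.1% in both the remaining 18.1%, 10.1% and 10.9%. Overlap and classes use the same shares, and a barcode over 4-fold apart adds only its smaller share by definition. The split is therefore a description. The part given by matching barcodes depended on the cut, with means of 65.9% at 4-fold, 40.9% at 2-fold and 83.2% at 8-fold. The overlap was spread over many barcodes, and its 10 leading contributors gave 23.3%, 34.8% and 34.0% of it. Barcode 1A, the leading contributor in mouse 1, held 2.16% of B cell and 1.48% of Ccr2lo reads, and 1B held 1.68% and 1.24%. Barcode 1C was the most abundant of the B cells, with 8.41% of their reads against 1.11% in Ccr2lo macrophages. In mouse 2 barcode 2A held 5.60% and 4.31%, and 2B held 3.27% and 1.65%. Barcode 2C was 4.37-fold higher in B cells, with 4.96% and 1.13%. In mouse 3 barcode 3A held 3.34% and 1.62%, while 3B and 3C held 6.24% and 8.25% of B cell reads and 1.55% and 1.51% of Ccr2lo reads. Barcode 3B, at 4.001-fold, lay just past the limit and was counted as higher in B cells, so the totals of that class in mouse 3 include it. Barcode 3A was also read at 0.534% in T cells of mouse 1, and the origin of these reads was not tested. The other named barcodes stayed at or below 0.0538% in every sample of other mice.

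The same barcodes had unlike levels in the other blood cells. Barcodes 1A, 1B and 3A were at 0.958%, 0.620% and 0.136% of monocyte reads and at 0.221%, 0.170% and 0.0728% of neutrophil reads, below their level in Ccr2lo macrophages. Barcodes 2A and 3C were at 10.0% and 9.65% of monocyte reads, above their level in B cells and in Ccr2lo macrophages. Adding up the smallest share among B cells, Ccr2lo macrophages and monocytes of a mouse showed how much of the overlap monocytes held too, which was 47.9%, 59.4% and 37.5%. For T cells it was 48.4%, 57.4% and 44.1%, and for the highest of monocytes, neutrophils and T cells 61.4%, 69.9% and 53.7%. Ccr2hi macrophages held 91.6%, 92.8% and 92.3% of it and renal M2 macrophages 83.4%, 88.7% and 78.9%. A part of 30.1% to 46.3% was thus held by B cells and Ccr2lo macrophages above the level of every other blood population. The reads of those populations were spread over fewer barcodes than the reads of B cells. How much of this remainder follows from that was not tested.

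The leading barcodes of B cells were found in Ccr2lo macrophages, where they held a smaller part of the reads. The 10 most abundant barcodes of B cells held 35.5%, 42.1% and 45.1% of B cell reads and 6.76%, 12.5% and 12.004% of Ccr2lo reads in mice 1, 2 and 3. All 10 were among the 100 most abundant of the Ccr2lo macrophages in each mouse, and 2, 6 and 6 of them lay within 4-fold. The most abundant Ccr2lo barcode held only 1.78%, 4.31% and 1.62% of reads. This flatter spread limits how many of the leading B cell barcodes could lie within 4-fold. The 10 most abundant barcodes of Ccr2lo macrophages held 11.2%, 20.1% and 14.9% of their own reads and 19.2%, 20.8% and 33.4% of B cell reads. Of these, 9, 10 and 8 were among the 100 most abundant of B cells. No 10 barcodes held more of the Ccr2lo reads than these, so a lower sum for the B cell leaders was fixed in advance.

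Barcodes higher in B cells held much of the B cell reads. They held 49.9%, 43.6% and 39.4% of B cell reads and 6.91%, 6.30% and 6.14% of Ccr2lo reads in mice 1, 2 and 3. Their median share was 0.536%, 0.537% and 0.355% in B cells. Only 6 of them in each mouse were under 0.01% in Ccr2lo macrophages, and these held 0.804%, 0.963% and 1.27% of B cell reads. Barcode 1D held 0.232% of B cell reads, 25197 reads, and 18 reads in Ccr2lo macrophages. Barcode 1E held 0.434% and 0.0134%, 2D 0.386% and 0.00608%, 3D 0.369% and 0.00719%, and 3E 0.329% and 0.00779%. These 5 barcodes were also at or under 0.0217% in monocytes and T cells of their mouse. Barcode 2E differed from them, as it led the B cells of mouse 2 with 7.14% and held 2.64% of T cell reads, against 0.362% in Ccr2lo macrophages and 0.176% in monocytes.

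Barcodes higher in Ccr2lo macrophages were more numerous, and most of them were at trace level in B cells. They held 21.2%, 28.2% and 28.6% of Ccr2lo reads and 1.24%, 2.10% and 2.14% of B cell reads. Under 0.01% in B cells were 83 of 116, 63 of 98 and 70 of 116, with 13.4%, 11.5% and 12.1% of Ccr2lo reads. Over the 3 mice, 153 of these 216 barcodes lay under 0.001% of B cell reads. For 112 of the 216, the share in B cells of their own mouse was no higher than in the B cells of another mouse, and for 104 it was higher. Barcode 2F, with 0.534% of Ccr2lo reads, had 55 reads in B cells (0.000441%), and 2G, with 0.523%, had 52 reads (0.000417%). Barcodes 1F and 3F, at 0.296% and 0.502% of Ccr2lo reads, were at 0.000249% and 0.000292% in B cells. Barcodes 1G and 3G, at 0.385% and 0.583%, were at 0.00356% and 0.00817%, and 3G lay 32.6-fold lower in B cells.

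Populations that had not been used for this division were read out next. Among them, Ccr2hi and renal M2 macrophages lay close to the Ccr2lo sample that the division used. Ccr2hi macrophages overlapped with it by 0.785, 0.799 and 0.778 in mice 1, 2 and 3, and M2 macrophages by 0.676, 0.748 and 0.669. The values of these populations are therefore not independent of the division. The barcodes within 4-fold held 50.04%, 57.5% and 73.1% of monocyte reads, 45.3%, 59.3% and 70.7% of T cell reads and 50.02%, 56.7% and 74.4% of renal M1 macrophage reads in mice 1, 2 and 3. Their part of the Ccr2hi reads was 31.3%, 40.2% and 38.0% and of the renal M2 reads 29.7%, 39.2% and 31.8%. In each mouse, monocytes, neutrophils, T cells and M1 macrophages thus held more of their reads in these barcodes than Ccr2hi and M2 macrophages did. Fewer barcodes share the reads of those 4 populations, and the part of this difference that follows from that was not tested. Barcodes higher in B cells held 37.7%, 12.7% and 18.3% of monocyte reads and 27.5%, 11.1% and 23.2% of T cell reads. Single barcodes made up much of this. The leading one of the class held 8.96%, 4.12% and 9.65% of monocyte reads, and the leading one in T cells 7.32%, 3.08% and 14.9%. Barcodes of this class held 8.93%, 6.54% and 9.75% of Ccr2hi and 10.8%, 5.90% and 7.72% of M2 reads. Their part in Ccr2lo macrophages, which the division used, was 6.91%, 6.30% and 6.14%. The Ccr2hi part lay above it in each mouse, and the M2 part in mice 1 and 3.

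Barcodes higher in Ccr2lo macrophages were also found in Ccr2hi and renal M2 macrophages. They held 17.7%, 25.1% and 24.1% of Ccr2hi reads and 14.9%, 24.6% and 20.1% of renal M2 reads in mice 1, 2 and 3. All 116, 98 and 116 of them were at 0.01% or more in Ccr2hi macrophages, and 113, 94 and 115 in M2 macrophages. Such presence was common among the counted barcodes, and both populations lay close to the Ccr2lo sample that the division used. Of those within 4-fold, 129 of 129, 87 of 87 and 106 of 108 reached it in Ccr2hi macrophages, and 127, 86 and 108 in M2. Of those higher in B cells, 45 of 51, 35 of 40 and 27 of 39 reached it in Ccr2hi macrophages, and 46, 33 and 35 in M2. In monocytes they held 1.85% in mouse 1 and 2.33% in mouse 3, but 25.9% in mouse 2. A single barcode among them held 11.6% of the monocyte reads of mouse 2. In T cells they held 4.10%, 12.4% and 0.678%. Mouse 2 was also the animal in which monocytes and neutrophils came nearest to Ccr2lo macrophages, with ratios to the ceiling of 0.823 and 0.811.

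**Figure D4:**
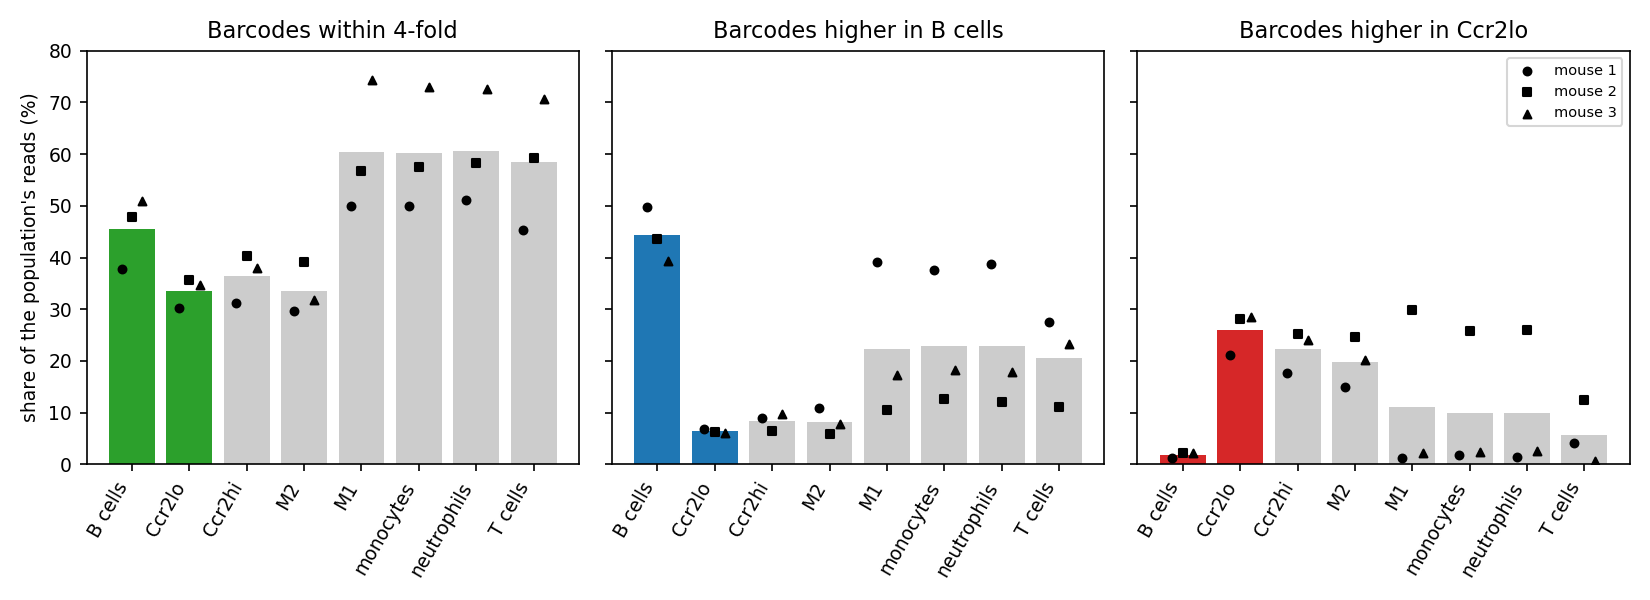
Percentage of the reads of each of the 8 populations held by barcodes within 4-fold between B cells and Ccr2lo macrophages (left), higher in B cells (middle) or higher in Ccr2lo macrophages (right). Bars are means of 3 mice and symbols are single mice; coloured bars are the populations that defined the division and grey bars those that did not, and the right panel shows mouse 2 apart from mice 1 and 3 in monocytes, neutrophils and M1 macrophages.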

How the data were processed

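Barcode read counts of 24 samples, 8 populations of 3 mice, were deposited as 1 file per sample, per the file headers with a count for each distinct sequence. The authors' trimming, filtering and counting, the aligner and the build are not given in the sources used here. The counts are not normalised. Samples were grouped by the population and mouse number in their titles. Same-numbered samples come from the same animal by those labels, and overlap within a number (0.376 to 0.404 for the pair) against between numbers (0.0128 to 0.0242) bears the pairing out.

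Counts were divided by sample totals. The 5 measures of each blood population with Ccr2lo macrophages were compared between B cells (3 samples) and the other blood cells (9 samples) by an exact two-sided permutation test of the difference of means over all 220 assignments, with Benjamini-Hochberg adjustment for 5 tests. The 4 pairs of a mouse share its Ccr2lo sample, and p-values measure the spread between these samples. Permutation within mice (64 assignments) was the alternative. No count model across mice was fitted, since 98.4% of the barcodes that reached 0.1% in the pair did so in 1 mouse. Barcodes were named by the rule given with their sequences. The pair, the measures and the barcodes were chosen with earlier results of these data known, so the tests are not independent of that choice. Alternatives were thinning to 6808221 reads, merging sequences with 1 mismatch to one at least 10 times as abundant, removing counts under 10, removing low-level copies of barcodes that some other mouse held at a share 100 or more times as high, the alternating pattern only, removing the 10 leading barcodes, leaving out each mouse, and other cuts. Python 3.11.15, numpy 2.4.6, pandas 2.3.3, scipy 1.17.1 and matplotlib 3.10.9 were used, and the measures were tested on simulated data.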

Additional observations from a re-analysis of the deposited data

Results flagged for a closer look

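B cells overlapped more than monocytes with Ccr2lo macrophages in each mouse, by 0.146 ± 0.084 (SD, n = 3, from 0.0598 to 0.228). With renal M1 macrophages the same difference was below 0 in each mouse, at -0.553 ± 0.0502 (SD, n = 3, from -0.606 to -0.507). All 3 mice thus had opposite signs for the 2 macrophage populations, and this contrast between the populations was not tested. With Ccr2hi macrophages the difference was 0.128, -0.00694 and 0.237 in mice 1, 2 and 3, and with M2 macrophages 0.0699, 0.0407 and 0.136. Relative to the ceiling, monocytes lay above B cells with Ccr2lo macrophages in mouse 1 (0.661 against 0.642) and mouse 2 (0.823 against 0.614), and below them in mouse 3 (0.474 against 0.611).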

How the results depend on the processing

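The overlap relative to its maximum, the Morisita-Horn index and the count of shared leading barcodes stayed on the same side of the threshold in all alternatives but 1, the Morisita-Horn index without the 10 leading barcodes of each sample (difference 0.254), where the overlap itself moved to 0.362. The differences in barcodes within 4-fold and in covered Ccr2lo reads kept their direction in the alternatives run. The first shrank to 11.05 points with barcodes at 0.01% in either sample and to 7.80 points with 0.1% added. They lost their call with barcodes at 0.1% in both samples (17.6 points), with ranks in place of shares for the 100 leading Ccr2lo barcodes (7.33 points, also within mice) and with the 100 leading barcodes of each population (1.77 points, also within mice), of which the last 2 were added after the values were seen. Without 1 mouse the exact permutation test of 2 against 6 samples allows no p below 0.0357, and the calls on barcodes within 4-fold and on covered reads were lost (adjusted p = 0.0595 to 0.179). The differences then ranged from -0.0464 to 0.0721 for the overlap relative to its maximum, 0.0631 to 0.211 for the Morisita-Horn index, 21.2 to 28.6 points for barcodes within 4-fold, 17.4 to 23.4 points for covered reads and 2.5 to 5.67 for shared leading barcodes, and the overlap from 0.386 to 0.3999. With the mouse as a replicate block no call changed (differences 0.00652, 0.136, 24.6, 20.2 and 4.11). The share of barcodes called matching was 22.2% at 2-fold and 63.1% at 8-fold. Thinning to equal depth changed no call, while shares near 0.0001% rest on few reads.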
